A study of Mus musculus with 10 samples.

Results

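The FOS, JUN and other immediate early genes examined here were the 10 rows of the deposited gene count table with the symbols Fos, Fosb, Fosl1, Fosl2, Jun, Junb, Jund, Egr1, Atf3 and Ier2, out of 22457 genes listed. They were chosen by symbol, with the difference between the M3-CKO and Ctrl groups already in view, so every value of that difference for these 10 genes is given as a description and supports nothing by itself. The libraries came from mouse tracheal epithelial organoids, which are multicellular structures that airway basal cells form in Matrigel, harvested on day 14. Ctrl organoids came from control mice and M3-CKO organoids from mice labelled, in the title of the series, as a knockout of Mettl3, with 3 RNA-seq libraries in each group. Mettl3 is the catalytic subunit of the enzyme that writes N6-methyladenosine (m6A) on mRNA. Both groups shared the same protocol: a growth medium with cholera toxin, retinoic acid, the TGF-beta receptor inhibitor A83-01, the BMP receptor inhibitor DMH-1 and 25 ng/ml epidermal growth factor (EGF), and a differentiation medium with 5 ng/ml EGF. EGF is itself an inducer of immediate early genes. The day of the change of medium, the deleted part of Mettl3, the promoter or Cre line that drives the deletion, and the age and strain of the mice were not stated in the labels used here, and the protocol describes no step that sorts basal cells. It is also not given whether replicates were separate mice or separate cultures, so SDs, SEs and p-values reflect how much these libraries vary, part or all of which may be technical.

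AP-1 is a family of transcription factors made of pairs of basic leucine zipper proteins. FOS proteins (Fos, Fosb, Fosl1, Fosl2) cannot pair with each other and need a JUN partner (Jun, Junb, Jund), while JUN proteins can also pair among themselves and with ATF proteins such as Atf3. Many of these genes are immediate early genes: growth factors, wounding, stress or handling of cells switch them on without any new protein synthesis, through the serum response factor (SRF) with its ternary complex partners and through CREB, and their mRNAs are short-lived. Egr1, a zinc finger factor, and Ier2, a small nuclear protein, are induced in the same way. In airway epithelium AP-1 factors are known for their part in wound repair and in squamous differentiation.

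The promoters of the genes that the results turn on are shown first: Fosb and Fos, the pair with the largest differences, and Jun and Junb, members of one subfamily whose differences had opposite signs. The sequences are from RefSeq on build GRCm38.p6, which is not the build of the counts, and run from 250 bases before the start of the gene to 50 bases into it. Capitals mark matches, on either strand, to the CRE core TGACG, the CRE-type site TGACNTCA, the EGR site GCGNGGGCG and the letters of the TATA box, TATAAA. Fosb lies at chr7:19309996-19310295 on the minus strand, Fos at chr12:85473640-85473939 on the plus strand, Jun at chr4:95052173-95052472 on the minus strand and Junb at chr8:84978699-84978998 on the minus strand.
Fosb: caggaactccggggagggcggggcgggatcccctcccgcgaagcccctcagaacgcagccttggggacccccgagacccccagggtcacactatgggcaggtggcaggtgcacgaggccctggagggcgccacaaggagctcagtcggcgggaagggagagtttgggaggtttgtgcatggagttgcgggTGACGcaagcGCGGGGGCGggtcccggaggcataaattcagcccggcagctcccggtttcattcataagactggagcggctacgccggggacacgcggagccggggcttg
Fos: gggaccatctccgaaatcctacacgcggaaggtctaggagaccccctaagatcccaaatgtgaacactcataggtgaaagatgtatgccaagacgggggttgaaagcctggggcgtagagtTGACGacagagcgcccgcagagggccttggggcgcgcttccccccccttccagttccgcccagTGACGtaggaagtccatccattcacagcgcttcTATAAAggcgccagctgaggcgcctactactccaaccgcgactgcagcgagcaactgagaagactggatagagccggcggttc
Jun: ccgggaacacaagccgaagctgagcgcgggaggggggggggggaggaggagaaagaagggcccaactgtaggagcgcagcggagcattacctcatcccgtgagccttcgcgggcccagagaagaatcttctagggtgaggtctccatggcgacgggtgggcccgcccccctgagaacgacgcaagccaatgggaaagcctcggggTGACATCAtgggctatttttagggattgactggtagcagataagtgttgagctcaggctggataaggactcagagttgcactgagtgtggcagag
Junb: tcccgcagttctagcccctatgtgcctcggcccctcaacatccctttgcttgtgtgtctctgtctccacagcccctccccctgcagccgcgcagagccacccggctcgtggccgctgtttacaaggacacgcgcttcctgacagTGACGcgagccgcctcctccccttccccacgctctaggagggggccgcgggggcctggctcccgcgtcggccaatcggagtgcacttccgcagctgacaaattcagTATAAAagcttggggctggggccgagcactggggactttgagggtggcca

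The CRE core, which lies within the full site (CRE) read by CREB and ATF proteins, stood 60 to 56 bases before the start of Fosb, at 66 to 62 and at 129 to 125 bases before the start of Fos, and 106 to 102 bases before the start of Junb. Jun held none and held instead the CRE-type site TGACATCA at 45 to 38 bases before its start. An EGR site began 50 bases before the start of Fosb, and TATAAA 33 bases before that of Fos. In Junb TATAAA lay at bases 1 to 6 counted from the annotated start, so not upstream of it. Of the 10 genes, 7 had a promoter entry that was read (Fos, Fosb, Fosl2, Jun, Junb, Jund and Atf3). The CRE core matched in 4 of the 7 (Fos, Fosb, Junb and Atf3), against 20.8% of all 32841 promoters of the same length. The EGR site matched in Fosb and Fosl2 (5.55% of all promoters), the letters TATAAA in Fos and Junb (13.6%) and the CRE-type site in Jun (8.83%). The AP-1 site TGANTCA, the full CRE TGACGTCA (which is also one form of the CRE-type site) and the CArG box read by SRF matched in 0 of the 7 windows, against 7.81%, 1.79% and 1.63% of all promoters. These are matches of letters in a short window and show no binding, and the CRE-type site was added to the search after the sequences had been read. Of the 4 genes with the CRE core, Fosb, Fos and Atf3 were lower on average in M3-CKO and Junb was not. Of the read genes without it, Jun was lower on average and Fosl2 and Jund were not. A link between these letters and the levels was not tested.

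Each library held 8906375 to 10485922 counts. Levels are given as CPM (read counts scaled to library size), and 10 CPM corresponds to 89.1 to 104.9 counts. The M3-CKO replicate 3 library stood apart. Its correlation with M3-CKO replicates 1 and 2 across genes (Pearson r of log2 CPM, 0.919 and 0.908; genes are not independent replicates) was no higher than with the Ctrl libraries (0.919 to 0.925), so the values of the members are also given without it. Replicates 1 and 2 of M3-CKO were the closest pair (r 0.985) but differed by more than counting noise (chi-square 6.11 per degree of freedom). Mettl3 averaged 16.95 ± 1.96 CPM in Ctrl against 10.4 ± 0.632 CPM in M3-CKO (SD, n = 3), with no overlap. Its edgeR adjusted p was 0.12, and 0.043 without M3-CKO replicate 3. The edgeR fits that left out any other single library gave an adjusted p of 0.179 to 0.36. Which exons were deleted was not stated, so the Mettl3 counts check the labels only in part. The 6 listed epithelial genes summed to 2830.0 to 3413 CPM in Ctrl and 2665 to 3774 CPM in M3-CKO.

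Fosb, a FOS protein with a strong activation domain, had the largest difference of the set and was far lower in M3-CKO organoids. The Ctrl libraries, in the order of replicates 1 to 3 as for every gene below, had 142, 193 and 267 CPM of Fosb, and the M3-CKO libraries had 10.4, 9.13 and 2.24 CPM. All M3-CKO libraries were far below all Ctrl libraries, and the groups did not overlap. The M3-CKO values rest on 108, 80 and 22 counts. The mean was 200.7 ± 62.8 CPM in Ctrl and 7.26 ± 4.4 CPM in M3-CKO (SD, n = 3), so that M3-CKO had 3.62% of the Ctrl level. The edgeR log2 fold change (M3-CKO minus Ctrl, as for all fold changes below) was -4.79 with a standard error (SE) of 0.54, and -4.36 without M3-CKO replicate 3.

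Fos, the founding member of the family, was also lower, but by less. The Ctrl libraries had 294, 518 and 781 CPM of Fos, and the M3-CKO libraries had 122, 138 and 23.5 CPM. The lowest Ctrl library was above the highest M3-CKO library, and the spread within each group was wide, with M3-CKO replicate 3 far below the other two. The log2 fold change was -2.49 (SE 0.64), or -2.03 without M3-CKO replicate 3. The difference was not of the same size for both genes. The log2 ratio of Fosb to Fos counts was -1.04, -1.43 and -1.55 in Ctrl, and lower in every M3-CKO library, at -3.55, -3.92 and -3.39. Within M3-CKO this ratio varied little, replicate 3 included, although Fos itself varied 5.87-fold there.

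Fosl2, which encodes the FOS protein FRA2 and is expressed in many epithelia without a stimulus, showed no such difference. It stood at 684, 379.9 and 439.8 CPM in Ctrl and at 584, 660.0 and 335 CPM in M3-CKO. The ranges of the groups overlapped widely. The log2 fold change was 0.07 (SE 0.31), or 0.31 without M3-CKO replicate 3, and changed sign when Ctrl replicate 2 or 3 or M3-CKO replicate 1 or 2 was left out. Fosl1, which encodes FRA1, was close to the detection limit, with 8, 3 and 5 counts in Ctrl and 3, 8 and 2 counts in M3-CKO. It did not pass the low-count filter and was not fitted, and no difference was detectable at this depth.

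The make-up of FOS transcripts was taken from the same counts, so it restates the differences above and is no separate result. Of the counts of the 4 FOS genes, Fosl2 gave 61.0%, 34.8% and 29.5% in the Ctrl libraries and 81.4%, 81.7% and 92.8% in the M3-CKO libraries. Fosb gave 12.7% to 17.9% in Ctrl and 0.619% to 1.46% in M3-CKO. Neither share overlapped between the groups. Counts were not scaled by transcript length, so a share can be compared between libraries but does not rank the genes. The summed level of the 4 genes was 1121, 1090.3 and 1489 CPM in Ctrl and 717, 808 and 361 CPM in M3-CKO.

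**Figure D1:**
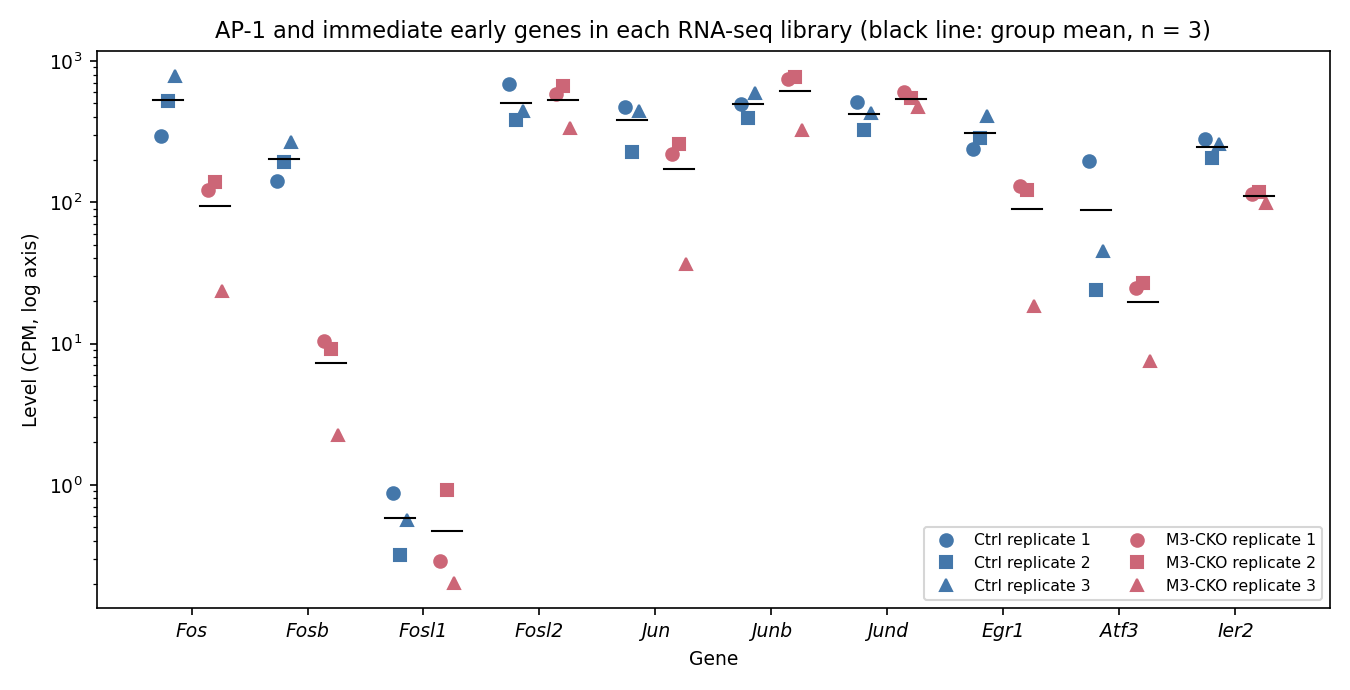
Level of each of the 10 genes in CPM (log axis) in each of the 6 RNA-seq libraries, with circles, squares and triangles for replicates 1, 2 and 3, blue for Ctrl, red for M3-CKO, and a black line at each group mean. The groups are apart for Fos, Fosb, Egr1 and Ier2, overlap for the other 6 genes, and the red triangle of M3-CKO replicate 3 is the lowest red point for every gene.

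Among the JUN genes the members also differed. Jun, the activator that is the usual partner of Fos, stood at 470.2, 227 and 442 CPM in Ctrl and at 218, 258 and 36.4 CPM in M3-CKO. Ctrl replicate 2 lay inside the range of M3-CKO, so the groups overlapped. The log2 fold change was -1.15 (SE 0.63), and -0.68 without M3-CKO replicate 3, a library in which Jun was 7.09-fold below M3-CKO replicate 2.

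Junb, which encodes a weaker activator that can oppose Jun, had 496, 398 and 593 CPM in Ctrl and 739, 771 and 325 CPM in M3-CKO. The first and second M3-CKO libraries were above all Ctrl libraries and the third was below them. The log2 fold change was 0.30 (SE 0.33), and 0.60 without M3-CKO replicate 3. Jund, the JUN gene known for steady expression in resting cells, had 513, 326 and 426 CPM in Ctrl and 602, 547 and 473 CPM in M3-CKO. Its groups overlapped in part, with a log2 fold change of 0.36 (SE 0.21), or 0.44 without M3-CKO replicate 3. As a share of the counts of the 3 JUN genes, Jun gave 23.9% to 31.8% in Ctrl and 14.0%, 16.4% and 4.36% in M3-CKO, with no overlap between the groups. The summed level of the 3 genes was 1479, 951 and 1460.3 CPM in Ctrl and 1559.6, 1577 and 835 CPM in M3-CKO, and these sums overlapped.

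**Figure D2:**
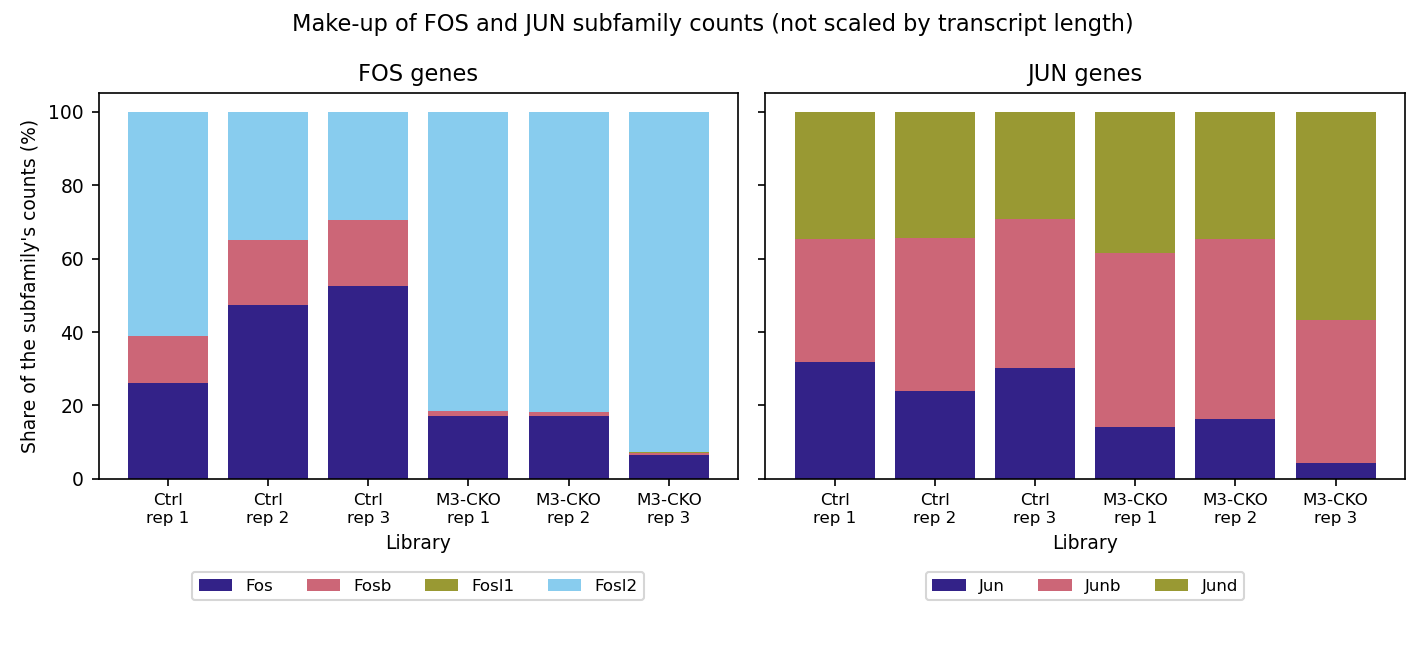
Stacked bars of the share (%) of each gene in the summed counts of the 4 FOS genes (left) and the 3 JUN genes (right), 1 bar per RNA-seq library. The shares restate the counts of the same genes. Fosl2 fills 81.4% to 92.8% of the FOS bars in M3-CKO against 29.5% to 61.0% in Ctrl, the Fosb band shrinks to 1.46% or less, and the Jun band is narrower in all 3 M3-CKO libraries.

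Egr1, a zinc finger factor that acts outside AP-1 but is induced by the same signals, followed Fos closely. It stood at 239, 286 and 406 CPM in Ctrl and at 129, 123 and 18.5 CPM in M3-CKO. The groups did not overlap, and again M3-CKO replicate 3 was far below the other two. The log2 fold change was -1.78 (SE 0.62), or -1.30 without M3-CKO replicate 3.

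Ier2 had the smallest SD within groups of the 10 genes (0.19 on the log2 CPM scale). Its level was 281, 205 and 257 CPM in Ctrl and 115, 118 and 98.25 CPM in M3-CKO. The groups did not overlap, the M3-CKO libraries differed by at most 1.21-fold, and replicate 3 lay near the other two here. The mean was 248 ± 38.9 CPM in Ctrl and 110.5 ± 10.8 CPM in M3-CKO (SD, n = 3), with a log2 fold change of -1.16 (SE 0.17) that was -1.09 without M3-CKO replicate 3.

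Atf3, a stress-induced partner of JUN proteins that often represses, had a difference that rested on 1 library. Its level was 196, 24.1 and 45.0 CPM in Ctrl and 24.5, 26.8 and 7.53 CPM in M3-CKO. Ctrl replicate 1 was 8.14-fold above Ctrl replicate 2, which lay within the M3-CKO range. The log2 fold change of -2.17 (SE 0.80) became -0.81 without Ctrl replicate 1, and -1.79 without M3-CKO replicate 3.

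**Figure D3:**
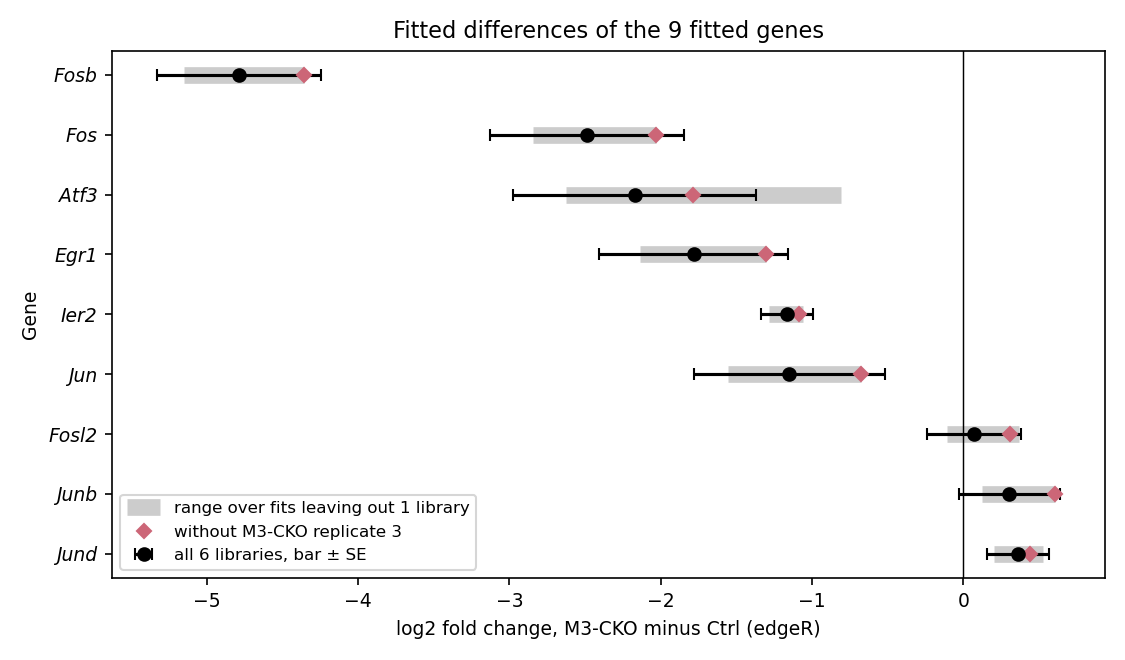
log2 fold change (M3-CKO minus Ctrl) of the 9 fitted genes from the edgeR fit, with the value from all 6 libraries and its SE (black), the value without M3-CKO replicate 3 (red diamond) and the range over the 6 fits that each leave out 1 library (grey bar). Fosb lies near -4.79, Fos, Atf3, Egr1, Ier2 and Jun lie between -2.49 and -1.15, and Fosl2, Junb and Jund lie at 0.07 to 0.36.

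Read over all genes, the edgeR quasi-likelihood fit called 2 of the 9 fitted members, Fosb and Ier2, both lower, beside 1.16% of the 13528 tested genes called lower, 1.74% called higher and 2.91% called in either direction. Fosl1 was the member that could not be fitted. The CPM ranges of the groups did not overlap for 4 of the 10 genes (Fos, Fosb, Egr1 and Ier2), all lower in M3-CKO, beside 13.5% of all tested genes not overlapping in that direction and 27.1% in either. Because the members were chosen with this comparison known, nothing is read from these shares. Both calls were lost when any 1 of the 3 Ctrl libraries, M3-CKO replicate 1 or M3-CKO replicate 2 was left out. Without M3-CKO replicate 3 the fit called 5 members, Fos, Fosb, Egr1 and Ier2 lower and Junb higher, beside 25% of all tested genes. The number of cells of a type and the RNA per cell cannot be told apart in these bulk libraries.

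The members varied within the groups along 2 lines. All 10 were lowest in replicate 3 among the M3-CKO libraries, as were 44% of all tested genes. The gap to the mean of replicates 1 and 2 on the log2 CPM scale was widest for Egr1 (-2.75), Jun (-2.70) and Fos (-2.46) and narrowest for Jund (-0.28) and Ier2 (-0.25). The same library was the lowest M3-CKO library for 28 of 35 other immediate early genes, whose median gap was -0.99, against 0.01 over all tested genes. In Ctrl the members split: Fos, Fosb, Junb and Egr1 were highest in replicate 3, and Fosl1, Fosl2, Jun, Jund, Atf3 and Ier2 in replicate 1. Of the other immediate early genes, 31 of 35 were highest in Ctrl replicate 1, as were 40.5% of all tested genes.

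Other values moved with these libraries. In M3-CKO replicate 3 the 12 heat shock genes had a median gap of 0.39 above replicates 1 and 2. The 5 club cell markers summed to 4872 CPM there, against 1862 and 1359 CPM in replicates 1 and 2 and 3003 to 3493 CPM in Ctrl. Most of that sum was Cyp2f2. The club cell secretory gene Scgb1a1 was higher in every M3-CKO library than in any Ctrl library, and highest in M3-CKO replicate 3. It stood at 5.57, 4.33 and 2.81 CPM in Ctrl and at 83.2, 37.5 and 359 CPM in M3-CKO. It was the only club marker whose groups did not overlap. Of the others, Scgb3a2 and Scgb3a1 had positive log2 fold changes (1.5 and 0.82) and Cyp2f2 and Bpifa1 negative ones (-0.59 and -0.50). The 7 basal cell markers summed to 1959 to 2409 CPM in Ctrl and 687 to 1116 CPM in M3-CKO, with no overlap. Among them Krt5, Krt14 and Krt15 were lower in all M3-CKO libraries than in any Ctrl library. The groups overlapped for Trp63, Ngfr, Pdpn and Dlk2. The 4 hillock cell markers, which mark a squamous-like airway cell, summed to 1382 to 1644 CPM in Ctrl and 678 to 756 CPM in M3-CKO, again with no overlap. The keratin gene Krt4 among them stood at 612, 556 and 456 CPM in Ctrl and at 136, 109 and 213 CPM in M3-CKO. Of 8 immune markers 5 had a row, with sums of 536 to 1434 CPM in Ctrl and 457 to 793 CPM in M3-CKO, mostly Lyz2. The pan-leukocyte gene Ptprc had 0 counts in 5 of the 6 libraries. Of 9 mesenchymal markers 5 had a row, with sums of 4.59 to 13.3 CPM in Ctrl and 2.40 to 3.86 CPM in M3-CKO, and the collagen gene Col1a1 was at 0 in all Ctrl libraries. Their part in the levels of the AP-1 genes was not tested.

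Of 40 other immediate early genes, 35 were tested and had values on both sides of 0. edgeR called 0 of 35, with 9 at an unadjusted p under 0.05 (3 higher, 6 lower), a share of 25.7% beside 20.5% of all tested genes. DESeq2 called 4 (2 higher, 2 lower), or 11.4% beside 10.4% of all genes it tested, and limma-voom called 0. These shares lie near the background, and the same background of 20.5% and 10.4% holds for the lists that follow. Their median log2 fold change was -0.15, against 0.02 over all tested genes, with 14 positive and 21 negative. The lowest unadjusted p values were those of Ptgs2, an inducible prostaglandin synthase (0.63 on the log2 scale, SE 0.16, edgeR adjusted p = 0.085), and Nfkbiz, a nuclear regulator of NF-kB targets (-0.64, SE 0.18, adjusted p = 0.094). Both had groups that did not overlap. Without M3-CKO replicate 3 edgeR called 8 of 35, 4 higher and 4 lower, a share of 22.9% beside 25% of all tested genes.

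Of the other basic leucine zipper genes that can pair with AP-1 proteins, edgeR called 0 of 17 tested, with 2 at an unadjusted p under 0.05 (11.8%), and DESeq2 and limma-voom called 0. The list's median log2 fold change was 0.03. Batf3, a small AP-1 partner known from immune cells, stood at 1.53 CPM on average in Ctrl and 4.81 CPM in M3-CKO (1.64, SE 0.53, edgeR adjusted p = 0.14). Atf6, a sensor of endoplasmic reticulum stress, was at -0.43 (SE 0.17, adjusted p = 0.20), and the groups of both genes did not overlap.

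Upstream of these genes act SRF and its partners. Of 7 tested, edgeR and limma-voom called 0 and DESeq2 called 2, both lower (28.6%), with 3 at an unadjusted edgeR p under 0.05 (42.9%). Srf itself stood at 138, 98.0 and 106 CPM in Ctrl and at 78.5, 73.9 and 68.4 CPM in M3-CKO, with no overlap (log2 fold change -0.63, SE 0.17, edgeR adjusted p = 0.094). Mrtfb, an actin-responsive coactivator of SRF, also had groups that did not overlap (-0.51, SE 0.13, adjusted p = 0.078). Without M3-CKO replicate 3 edgeR called 4 of 7, Srf and Mrtfb lower and Elk3 and Fhl2 higher, beside 25% of all tested genes in that fit. Elk3, a ternary complex factor, and Fhl2, an SRF cofactor, are named to complete that count and were chosen after their values were seen.

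In the MAP kinase cascade, which carries growth factor and stress signals to these promoters, edgeR called 1 of 26 tested genes (3.85%, beside 2.91% of all tested genes). Map2k6, a kinase that activates p38, fell from 29.7 CPM in Ctrl to 13.9 CPM in M3-CKO on average (log2 fold change -1.10, SE 0.19, edgeR adjusted p = 0.033). Its call was lost in 5 of the 6 fits that left out 1 library, with adjusted p from 0.102 to 0.168, and held without M3-CKO replicate 3. The list's median was -0.06.

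Other lists held regulators of the proteins and mRNAs of the family. edgeR called 0 of 6 genes that act on AP-1 or EGR proteins, with 1 at an unadjusted p under 0.05 (16.7%), and DESeq2 and limma-voom called 0. Itch, a ubiquitin ligase of JUN proteins, was at -0.38 on the log2 scale (SE 0.13, edgeR adjusted p = 0.17), and Fbxw7, which also marks JUN for breakdown, -0.27 (SE 0.20, adjusted p = 0.49). Of 8 proteins that bind AU-rich elements, the decay signals found in Fos mRNA, edgeR and limma-voom called 0 and DESeq2 called 1, Zfp36, lower, with 1 at an unadjusted edgeR p under 0.05 (12.5% each). Zfp36, which promotes the decay of such mRNAs and is also in the list of other immediate early genes, averaged 369 CPM in Ctrl against 177 CPM in M3-CKO, with no overlap (-1.06, SE 0.32, edgeR adjusted p = 0.12). Zfp36l1, a relative, was at -0.49 (SE 0.25, adjusted p = 0.33).

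Genes known as AP-1 targets had values on both sides of 0. edgeR and limma-voom called 0 of 15 tested and DESeq2 called 4 (3 higher, 1 lower, 26.7% in all), with 7 at an unadjusted edgeR p under 0.05 (4 higher, 3 lower, 46.7% in all). The median log2 fold change was 0.49, against 0.02 over all tested genes, with 12 positive and 3 negative. Tnc, the matrix protein tenascin C, stood at 18.9, 16.1 and 9.43 CPM in Ctrl and at 125, 109 and 26.8 CPM in M3-CKO (2.56, SE 0.56, edgeR adjusted p = 0.057). Its groups did not overlap. Of the heat shock genes, which encode chaperones induced by stress, edgeR called 1 of 12 (8.33%, beside 2.91% of all tested genes). An unadjusted edgeR p under 0.05 was seen for 3 (25%), and DESeq2 called 2 (16.7%). Dnajb4, a chaperone partner, rose from 49.6 to 122 CPM on average (1.30, SE 0.18, edgeR adjusted p = 0.023), a call that was lost in 5 of the 6 fits that left out 1 library (adjusted p from 0.0746 to 0.127) and held without M3-CKO replicate 3.

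**Figure D4:**
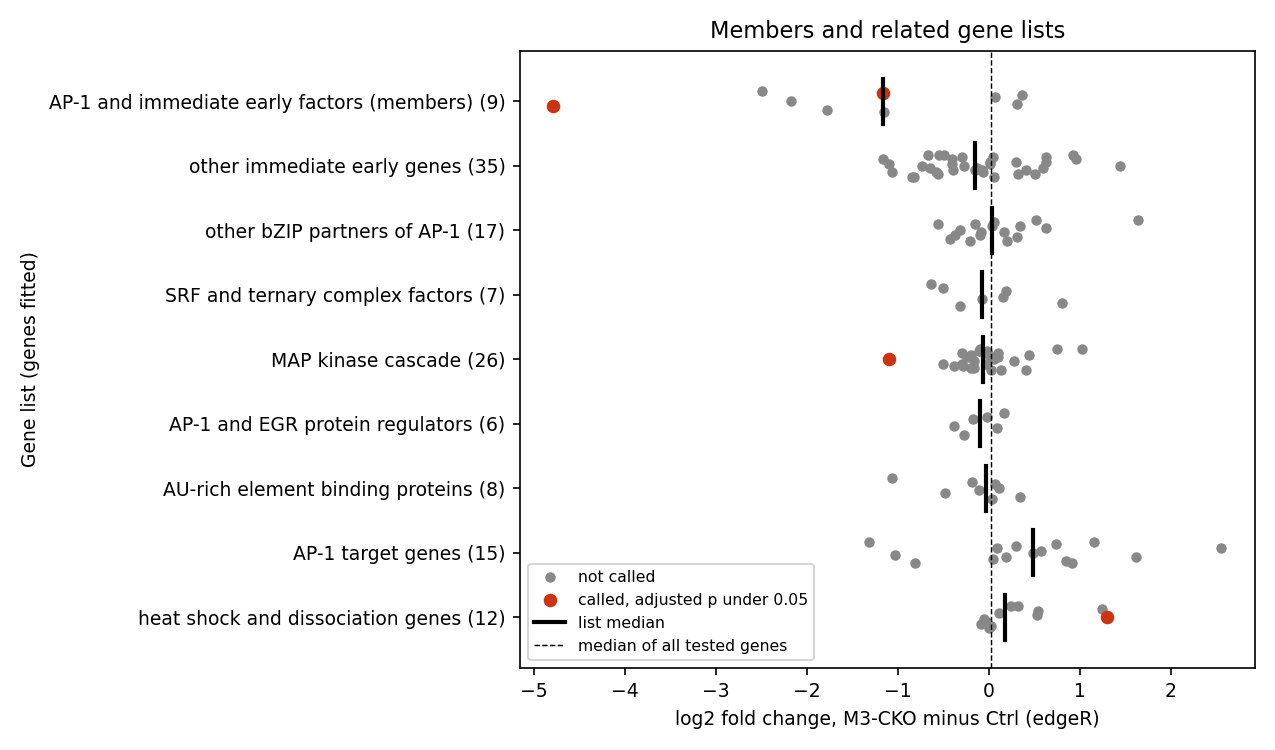
log2 fold change (M3-CKO minus Ctrl) of every fitted gene of the member set and of 8 related lists, 1 point per gene, with red points called by edgeR, a black bar at each list's median and a dashed line at the median of all tested genes (0.02). Fosb at -4.79 lies outside the range of all 8 related lists, as do Fos, Atf3 and Egr1. All tested genes span -7.76 to 9.37, and the list medians run from -0.15 to 0.49. Members and lists were chosen with earlier results known, so nothing is read from these positions.

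The genes whose level across the 6 libraries was most like that of Fosb or Fos were found by the root mean square distance between log2 CPM profiles, each centred on its own mean, among tested genes with a mean of at least 5 CPM and no predicted or clone name. Near Fosb were Dmbt1, a secreted scavenger receptor of mucosal surfaces, at a distance of 0.27, Lgi2 (1.06), Slc34a2, a phosphate transporter (1.19), and Ly6k (1.22). Fos itself lay 1.14 from Fosb. Dmbt1 stood at 179.5, 176 and 276 CPM in Ctrl and at 16.4, 13.2 and 3.15 CPM in M3-CKO, so that the order of the M3-CKO libraries was that of Fosb. Nearest to Fos was Egr1, a member of the set, at 0.37. Outside the set, Muc21, a membrane mucin, lay at 0.42, Prrg3 at 0.44, Olfm4, a secreted glycoprotein, at 0.49, Pik3c3, a lipid kinase of autophagy, at 0.54 and Upk3bl at 0.55. The distance is set largely by the difference between the groups and by M3-CKO replicate 3, and it says nothing of shared function.

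**Figure D5:**
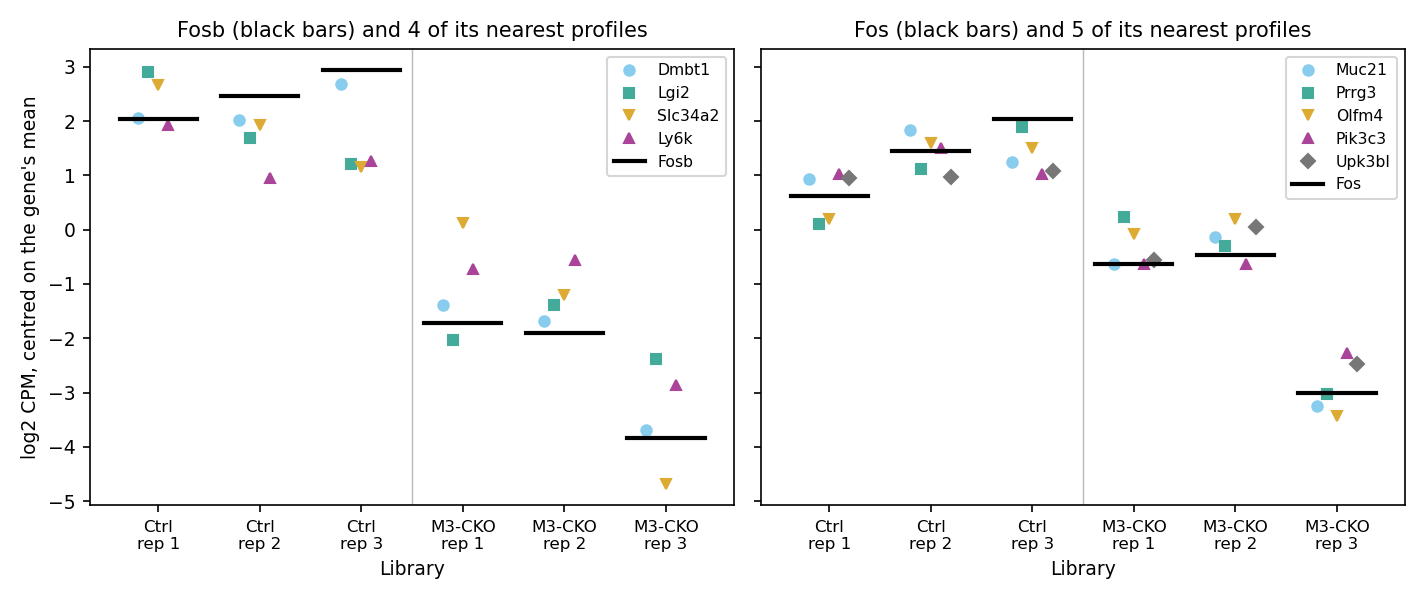
log2 CPM centred on each gene's mean in each of the 6 RNA-seq libraries, for Fosb (left) and Fos (right) as black bars and for 4 genes near Fosb and 5 near Fos as coloured points. The points of Dmbt1 lie close to the Fosb bars (distance 0.27), and the other genes shown for Fosb scatter more widely (1.06 to 1.22) than those nearest to Fos (0.42 to 0.55).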

How the data were processed

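RNA-seq was measured in 6 libraries, 3 Ctrl and 3 M3-CKO. The m6A immunoprecipitation libraries and their inputs (4 of the 10 in the series) were not analysed here. The deposited values are raw counts per gene symbol, made by the authors. The submitters' processing notes name HISAT2, featureCounts, Trim Galore and build mm39, with no role or order. Tool versions, annotation, strand setting and the handling of multi-mapped reads were not given in the sources used here, so reads of overlapping or antisense genes cannot be told apart.

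edgeR 4.0.16 in R 4.3.3 took the raw counts. After filterByExpr 13528 genes were left, TMM scaling was applied, and the two-sided quasi-likelihood test compared M3-CKO with Ctrl with no covariate. A call needs an adjusted p (Benjamini-Hochberg, over all tested genes) under 0.05. The SE is the log2 fold change over the square root of F. CPM uses TMM-scaled library sizes, and log2 CPM a prior count of 2. Alternatives were DESeq2 1.42.0, its size factors, limma-voom (limma 3.58.1), 2 other low-count filters, a replicate block and leaving out each library. The steps were tested on simulated data with 200 of 13528 genes changed, counts drawn independently and no library made to stand apart. There edgeR called 21.3% of the 2-fold changes put in and 73.9% of the 4-fold changes, with 10 false calls. These rates need not hold in the real libraries, and a gene that is not called may still differ.

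The members and the lists were chosen with earlier results of these data known. The text names all members, Mettl3, per list up to 4 called genes by adjusted p (or, with none called, the 2 lowest by unadjusted p), and the 5 genes nearest to Fosb and to Fos. Of 205 list genes, 188 had a row. Marker genes are named beyond this rule, and 2 genes that it selects are not reported here.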

Additional observations from a re-analysis of the deposited data

How the results depend on the processing

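Signs of the log2 fold changes of Fos, Fosb, Jun, Junb, Jund, Egr1, Atf3 and Ier2 held in all 12 alternatives, while that of Fosl2 changed sign in 4 (-0.10, -0.02, -0.01 and -0.11), all of them fits that left out 1 library. Counts of called genes moved far more. The edgeR count over all genes was 393 of 13528, against 1402 of 13516 by DESeq2. It was 740 of 22457 with no low-count filter and 20 of 13528 with the replicate block. The members called were 2, against 4 by DESeq2 (Fos and Egr1 added), a share of 44.4% beside 10.4% of all genes. They were 3 with no low-count filter (Fos added) and 0 with the replicate block. Nothing is read from these counts, as the members were chosen with this comparison known. Beside an edgeR count of 0, DESeq2 called 4 other immediate early genes, 2 SRF factors, 1 AU-rich element binding protein and 4 AP-1 targets, and the fit with no low-count filter called 1 other immediate early gene and 4 AP-1 targets. In the MAP kinase cascade 1 was called, against 3 by DESeq2 (11.5%), 2 with no low-count filter and 0 with the replicate block. Of the heat shock genes 1 was called, against 2 by DESeq2 (16.7%) and 0 with the replicate block. Both DESeq2 shares stand beside the 10.4% of all genes. Leaving out 1 library gave 0 to 3483 genes in all, 0 to 5 members, 0 to 8 other immediate early genes, 0 to 5 basic leucine zipper partners, 0 to 4 SRF factors, 0 to 7 MAP kinase genes, 0 to 1 AP-1 and EGR protein regulators, 0 to 1 AU-rich element binding proteins, 0 to 7 AP-1 targets and 0 to 3 heat shock genes, with each highest count in the fit without M3-CKO replicate 3, which leaves M3-CKO with its closest pair. In that fit edgeR called 55.6% of members, 22.9% of other immediate early genes, 29.4% of basic leucine zipper partners and 57.1% of SRF factors. The shares were 26.9% for MAP kinase genes, 16.7% for AP-1 and EGR protein regulators and 12.5% for AU-rich element binding proteins. They were 43.8% for AP-1 targets and 25% for heat shock genes, beside 25% of all tested genes. Same-numbered libraries did not deviate together (r -0.03, 0.02 and -0.10), and no library correlated best with its own number. With so few libraries per group these values cannot settle whether libraries were paired, which was not stated. The replicate block is therefore given only as an alternative. At 2 to 8 counts per library Fosl1 cannot be compared at this depth.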
